A study of Mus musculus with 2 samples.

Results

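The endothelial cells of the postnatal dorsal root ganglion (DRG) were taken from 2 single-cell libraries as barcodes that carried endothelial marker RNA. A cell was a member when the summed UMIs (unique molecular identifiers, which count captured RNA molecules) of Cldn5, Pecam1, Cdh5, Egfl7 and Flt1 reached 0.15% of its total and at least 3 of the 5 genes were detected. Members also had to stay below 0.3% for macrophage markers and below 0.4% for neuronal markers. The rule found 345 members among 17149 cells that passed a filter (no fewer than 1000 UMIs and 500 detected genes, mitochondrial share up to 15%). The members were thus chosen by the measured UMIs of these 5 genes, whose levels describe the choice and are no finding.

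The series compared DRG cells of mice at postnatal day 4, dissected from all axial levels, dissociated and profiled with the 10x Genomics 3' assay. The flox library came from mice homozygous for a floxed Ptges3 allele (Ptges3 flox/flox), and the cKO library from mice that carried the same floxed alleles and Cre recombinase (Dhh CRE+, Ptges3 flox/flox). Ptges3 encodes p23, a co-chaperone of HSP90 that is also known as a prostaglandin E synthase. Dhh (desert hedgehog) is a ligand whose makers include cells of the Schwann lineage. Whether Cre acted in the endothelial cells of these mice was not tested. There was 1 library per genotype and the labels do not say how many animals stand behind each, so no difference between the libraries has a replicate check and every interval below covers counting error only.

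Endothelial cells line all blood vessels, and their programme depends on the vessel bed they belong to. Arteries, capillaries, veins and lymphatics have separate markers, and capillaries of the central nervous system form a barrier in which Wnt signalling maintains tight junctions and nutrient transporters and keeps genes of permeable vessels low. Vessels around the neuronal cell bodies of the DRG are known to be more permeable than those of the nerve, and PLVAP, the protein of fenestral and caveolar diaphragms, marks permeable endothelium.

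The flox library held 8714 filtered cells and the cKO library 8435, with medians of 7210 and 4354 UMIs. Members numbered 177 in the flox library (2.03%, exact Clopper-Pearson 95% interval 1.75 to 2.35%) and 168 in the cKO library (1.99%, 1.70 to 2.31%). The log2 ratio of the shares, cKO over flox, was -0.03 (-0.34 to 0.28), a difference within counting error. The denominator matters here, since among cells below the neuronal limit of the rule the ratio was 0.39 (0.07 to 0.70). Depth differed, with a median of 10188 UMIs per member in the flox library and 5096 in the cKO library. In the summed counts used below, fewer cells of a type and less RNA per cell cannot be told apart.

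Members just inside the limit, between 0.15% and 0.2% of UMIs, numbered 8 and 9 in the flox and cKO library, and cells just below it, between 0.1% and 0.15%, numbered 3 and 9. All 5 marker genes were detected in 132 flox and 113 cKO members. No member barcode occurred in the other library, although 16 filtered barcodes were shared between the libraries.

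The label held against genes that the rule did not use. Of 26 further endothelial genes, 24 were at least 4 log2 units higher in members than in all other filtered cells in both libraries, and the median of these differences was 7.28. The smallest, 3.33, was that of Ecscr, a surface protein of endothelial cells. Robo4, a receptor that stabilises vessels, stood at 140.0 CPM in the flox members and 0.171 CPM in the other flox cells, and at 209 and 0.250 CPM in the cKO library, where CPM are counts scaled to 1000000 summed UMIs. Sox7, one of the SOX transcription factors of endothelium, stood at 148 CPM in the flox members and 0.210 CPM in the other flox cells, and at 269.6 and 0.434 CPM in the cKO library. The VEGF receptor Kdr, the lipoprotein lipase anchor Gpihbp1 and the angiopoietin-family receptor Tie1 were also among the 20 genes with the largest such difference. These differences follow from the choice of cells and are a description, with no test.

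Some members also held RNA of neighbouring cell types. Summed mural markers reached 0.15% of UMIs in 17 flox and 9 cKO members, fibroblast markers 0.5% in 15 and 10, and glial markers 0.5% in 10 and 2. Together these mixed members made up 37 (20.9%) of the flox and 20 (11.9%) of the cKO members. Their median depth was 16774 and 9851.5 UMIs, against 8914.5 and 4785.5 UMIs in the unmixed members. Whether they were doublets was not tested.

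The members of both libraries were clustered together, without integration of the libraries. Of the 7 clusters, 1 could be named from vessel bed markers. It was the barrier-like cluster, whose 10 leading genes held 7 barrier markers, and it had 37 flox cells and no cKO cell. That is 20.9% of the flox members (15.2 to 27.6%), whereas 0 of 168 cKO members allows a share of up to 2.17%. The largest clusters split by library, with 3 flox and 108 cKO cells in cluster 0 and 65 flox and 11 cKO cells in cluster 1. The part of differences between the whole libraries in this split was not tested. Cluster 0 was led by AY036118, Gm42418 and Lars2, genes that overlap or resemble ribosomal RNA sequence, followed by the vasoconstrictor peptide gene Edn1 and by Noct. The leading genes of cluster 1 included Lbp, the selectin gene Sele and Vwf. Clusters 2, 4 and 5 were led by mural (Acta2, Tagln, Tpm2), glial (such as Mal and Mbp) and fibroblast (Apod, Dcn, Lum) genes, and cluster 6 by cell division genes (Hist1h1b, Cdk1, Top2a). These clusters stayed unnamed.

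**Figure D1:**
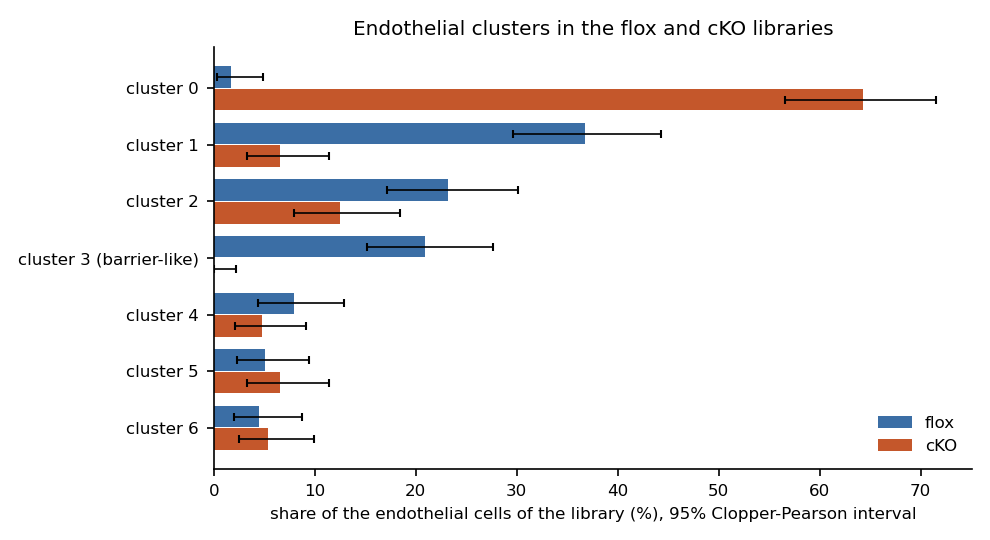
Share of each library's endothelial cells in the 7 clusters, with exact Clopper-Pearson 95% intervals (counting error). The flox library (177 cells) has 20.9% in the barrier-like cluster 3 and the cKO library (168 cells) none, while 64.3% of cKO cells and 1.69% of flox cells are in cluster 0.

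The barrier-like cells were compared with a restricted set of members, those outside the barrier-like cluster and below the mural, fibroblast and glial limits above (112 flox and 148 cKO cells, with 1277463 and 859641 UMIs). This set was defined after the data had been seen, and since the clusters were made from the same cells the comparison is a description with no test. Against the restricted flox cells, 25 of 26 measured barrier genes were at least 0.5 log2 units higher in the barrier-like cells and none was lower, with a median of 3.59. Over all 5305 genes with at least 50 UMIs, 10.2% were higher and 23.1% lower by that fold. The summed barrier genes reached 16063 CPM in the barrier-like cells, 2741 CPM in the restricted flox cells and 2944 CPM in the restricted cKO cells.

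Transporters of the barrier were high. The thyroid hormone and anion carrier Slco1c1 (GRCm38 chr6:141524368-141570177, plus strand) stood at 446 CPM (393 to 503) in the barrier-like cells, with UMIs in 35 of 37 cells. It stood at 5.48 CPM in the restricted flox cells and 3.49 CPM in the restricted cKO cells. The glutamine transporter Slc38a5 was at 639, 1.57 and 1.16 CPM in the same order, and the monocarboxylate transporter Slc16a1 at 553, 8.61 and 18.6 CPM. Mfsd2a, a lysophospholipid transporter that restrains transcytosis at the blood-brain barrier, was at 128, 2.35 and 1.16 CPM, and the organic anion transporter Slc22a8 at 186, 0 and 2.33 CPM. The glucose transporter Slc2a1 was at 332, 59.5 and 89.6 CPM, a difference of 2.48 log2 units (2.09 to 2.88) from the restricted flox cells. The efflux pump gene Abcg2 was the barrier gene inside the fold, at 283 against 228 CPM.

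Junction genes went both ways in the barrier-like cells, with 4 of 15 measured genes of that list higher than in the restricted flox cells, 5 lower and a median of -0.13. Occludin (Ocln) stood at 70.8, 6.26 and 2.33 CPM in the barrier-like, restricted flox and restricted cKO cells, and the tricellular junction gene Lsr, from the barrier list, at 204, 11.7 and 11.6 CPM. The tight junction gene Cldn5 stood at 3039, 600.4 and 936 CPM, but it is a gene of the rule and its level is given as a description. Of 14 measured genes of the Wnt/beta-catenin list, 7 were higher and 4 lower. The VEGF and BMP/TGF-beta lists were more often lower, with none higher and 4 of 5 lower for VEGF, and none higher and 6 of 15 lower for BMP and TGF-beta. The Notch list, with 1 higher and 3 of 8 lower, had a median of -0.07, near the -0.08 of all measured genes. Among the higher Wnt genes were the nuclear effector Lef1 (149 against 10.2 CPM) and the feedback inhibitors Apcdd1 (416 against 11.7 CPM) and Nkd1 (190.0 against 15.7 CPM). The transcription factor Foxq1 stood at 186 against 7.05 CPM.

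Genes of permeable vessels were low in the barrier-like cells, where 14 of 16 were lower, none was higher, and the median was -3.32. Plvap (GRCm38 chr8:71497765-71511752, minus strand) stood at 34.5 CPM (21.1 to 53.3), against 1317 CPM in the restricted flox cells and 1090.0 CPM in the restricted cKO cells. Gpihbp1 stood at 27.6, 736 and 675 CPM and the lipid phosphatase gene Plpp3 at 77.7, 834 and 643 CPM. The tip cell gene Esm1 had no UMI in the barrier-like cells. Many other lists were more often lower than higher, among them basement membrane (13 of 18), tip cell (14 of 17), guidance (11 of 14), arterial (9 of 13), angiocrine (9 of 12), adhesion and inflammation (9 of 14), caveola (7 of 11), lipid uptake (7 of 7) and interferon genes (12 of 19). The median of the 26 further endothelial genes was -0.54, with 14 below and 2 above the fold. Col4a1, a chain of type IV collagen, stood at 680.4 against 2968 CPM in the restricted flox cells, and the caveola gene Cav1 at 242 against 753 CPM.

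Single cells differed along both lists, with overlap at the edges. A set of 10 genes was taken from the barrier list, and several of these genes lead the barrier-like cluster. The cluster was named from the same list, so the counts below describe it and test nothing. Barrier-like cells held a median of 9 of the 10 (range 3 to 10), and the other members a median of 0 in each library. At least 5 of the 10 were found in 34 of 37 barrier-like cells, in 6 of the other 140 flox members and in 1 of 168 cKO members. After thinning every cell to 1000 UMIs, at least 5 of the 10 were found in 6 of the 37 barrier-like cells and in none of the others. A looser measure on the thinned cells, at least 2 of 6 barrier genes, was met by 23 flox (13.0%, 8.42 to 18.9%) and 4 cKO members (2.38%, 0.652 to 5.98%). In the same thinned cells Plvap had a UMI in 55.9% and 60.7% of flox and cKO members, and in 75.7% and 92.3% before thinning. The background in cells of the neuronal gate (cells chosen by neuronal markers, as the other gates named below were by theirs), which should lack Plvap, was 0.223% and 0.749% after thinning and 12.7% and 7.78% before, at median depths of 49903 and 10495 UMIs.

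**Figure D2:**
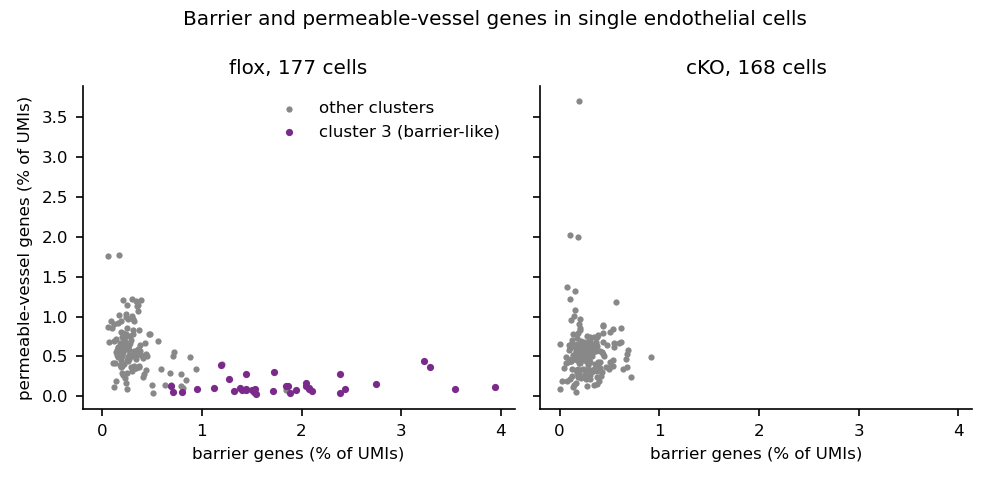
Summed barrier genes against summed permeable-vessel genes, each as % of the cell's UMIs, with 1 point per endothelial cell. The 37 barrier-like cells of the flox library lie at 0.687 to 3.94% barrier genes and at most 0.441% permeable-vessel genes, while the other flox cells reach up to 1.85% and the cKO cells up to 0.912% barrier genes, so the ranges overlap.

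Cells of the central nervous system moved with the barrier-like cells between the libraries. The flox library held 407 cells over an oligodendrocyte limit and 166 over an astrocyte limit (0.2% of UMIs, at least 3 of 6 markers each), and the cKO library held none of either, which allows a share of up to 0.0437%. Genotype and the tissue carried along at dissection cannot be told apart here. Within the cluster, 9 of 37 cells were mixed. All 5 measured fibroblast markers and 4 of 6 glial markers were higher than in the restricted flox cells (summed 2181 against 468 CPM and 2079 against 568 CPM). Their part in the result was not tested.

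Other vessel beds were thinly filled. At a finer clustering, 18 flox and 4 cKO members formed a cluster whose 10 leading genes held 4 venous markers, among them Sele, Vwf and Vcam1. In it von Willebrand factor (Vwf) stood at 496 CPM, and the selectins Selp and Sele, which slow leukocytes, at 293 and 239 CPM. It is called venous-like for such genes only, as 1 arterial (Mgp) and 1 permeable-vessel marker (Fabp4) also led it. Nr2f2, also of the venous list, did not set it apart, at 179 CPM against 28.1 to 188 CPM in the other clusters. No cluster was led by arterial or lymphatic markers. The lymphatic regulator Prox1 stood at 14.8 and 35.7 CPM in the flox and cKO members.

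The libraries were then compared over the summed UMIs of the members. Of 7432 genes with at least 50 UMIs over both libraries, 1276 (17.2%) were at least 0.5 log2 units higher in the cKO library and 1896 (25.5%) lower, with a median of -0.09. Scaling by trimmed means moved that split to 1585 higher and 1529 lower and the median to 0.01. In the restricted cells 996 (17.3%) of 5745 genes were higher and 1316 (22.9%) lower, with a median of -0.07. Each ratio below is cKO over flox on the log2 scale. Genes called higher or lower are past 0.5 in the cKO library, a pair of levels is flox and cKO, and the values in brackets after a pair are the ratio and its exact 95% counting interval. A list's counts are to be read against these shares.

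Ptges3 itself (GRCm38 chr10:128058954-128077272, plus strand) stood at 186 and 276 CPM (0.57, 0.35 to 0.79) over all members and at 180.0 and 285 CPM (0.66, 0.40 to 0.93) in the restricted cells. Over all members thinned to 1000 UMIs the ratio was 0.26, inside the fold. In cells of the glial gate it stood at 239 and 163 CPM (-0.55, -0.64 to -0.47), the only one of 5 gates with a ratio below 0. The sources used here do not give the floxed exons, so the 3' counts may lie outside the deleted part. Dhh had 56 and 13 UMIs over all members and 21 and 11 UMIs in the restricted cells, where glial RNA was limited.

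Of the 21 prostaglandin genes, which include Ptges3, 7 were measured over all members, 2 of them higher (Ptges3, but not after thinning, and Abcc4) and 3 lower. In the restricted cells 4 were measured, 1 of them higher and 0 lower. The levels below are over all members unless the restricted cells are named. The prostacyclin synthase gene Ptgis stood at 28.0 and 0.939 CPM (-4.90, -10.22 to -2.37), and in the restricted cells at 14.9 and 1.16 CPM, where 5 cells held 84.2% of the flox UMIs. The thromboxane receptor gene Tbxa2r stood at 24.6 and 6.58 CPM (-1.90, -3.28 to -0.77) and the carbonyl reductase gene Cbr1 at 45.0 and 31.0 CPM (-0.54, -1.15 to 0.04). The efflux pump gene Abcc4 stood at 17.0 and 27.2 CPM (0.68, -0.06 to 1.41). The cyclooxygenase gene Ptgs1 (29.3 and 37.6 CPM, ratio 0.36, -0.24 to 0.94) and the prostaglandin carrier gene Slco2a1 (72.5 and 70.4 CPM, ratio -0.04, -0.45 to 0.36) were inside the fold.

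The barrier list differed between the member sets with and without the cluster that the cKO library lacked. Over all members 23 of 29 measured barrier genes were lower and 1 higher, and the list's median was -1.89. In the restricted cells 2 of 14 were lower and 4 higher, and the median was 0.19. Genes of the barrier-like cluster had the lowest ratios over all members, among them Slc38a5 (164 and 0.939 CPM), Slco1c1 (120.4 and 2.82 CPM), Pglyrp1 (186 and 16.0 CPM) and Apcdd1 (116 and 10.3 CPM). In the restricted cells Pglyrp1 stood at 21.9 and 18.6 CPM and Apcdd1 at 11.7 and 12.8 CPM. For this reason the lists below are described in the restricted cells.

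**Figure D3:**
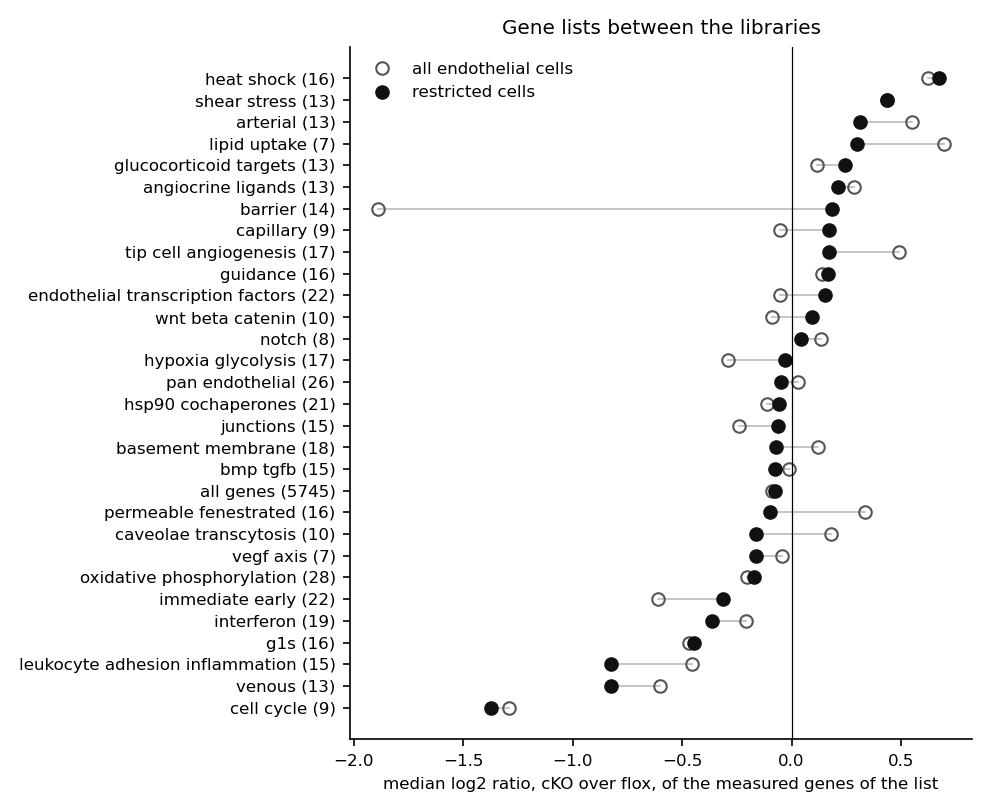
Median log2 ratio, cKO over flox, of the measured genes of each list, for all members (open points) and restricted cells (filled points). The barrier list has a median of -1.89 over 29 genes in all members and 0.19 over 14 genes in the restricted cells. The heat shock list has medians of 0.62 and 0.67 over 16 genes in each set.

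In the VEGF list 1 of 7 measured genes was higher, the rule gene Flt1, and 1 was lower, the ligand gene Vegfa. The signalling VEGF receptor Kdr stood at 827 and 739.8 CPM (-0.16, -0.31 to -0.02). Flt4 (49.3 and 51.2 CPM) and the co-receptor genes Nrp1 (336 and 280.4 CPM) and Nrp2 (200.4 and 168 CPM) were also inside the fold. Of the ligands, Vegfa stood at 29.7 and 14.0 CPM (-1.09, -2.16 to -0.12) and Vegfb at 29.7 and 26.8 CPM (-0.15, -0.97 to 0.63). Vegfc (29.7 and 10.5 CPM) and the FLT1 ligand gene Pgf (4.70 and 31.4 CPM) had fewer than 50 UMIs. The angiopoietin receptor Tek was lower, at 172 and 108 CPM (-0.67, -1.04 to -0.32), but its ratio over all members was 0.01 after thinning to 1000 UMIs. Tie1 (218 and 231 CPM) and the phosphatase gene Ptprb (366 and 364 CPM), which acts on the TEK receptor, were inside the fold.

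The levels of the genes of the rule describe the chosen cells and are no finding. Flt1, the decoy VEGF receptor, stood at 697 and 1140.0 CPM (0.71, 0.58 to 0.84) in the restricted cells. Cldn5 stood at 1202 and 875 CPM (-0.46, -0.57 to -0.35) over all members and at 600.4 and 936 CPM (0.64, 0.50 to 0.79) in the restricted cells, so its direction turned when the barrier-like and mixed cells were left out. Pecam1, an adhesion molecule of the junctions, stood at 658 and 889.9 CPM (0.44, 0.29 to 0.58) in the restricted cells, and Cdh5, the cadherin of the junctions, at 807 and 1105 CPM (0.45, 0.33 to 0.58). Egfl7, a secreted protein of vessels, was lower, at 1561 and 1088 CPM (-0.52, -0.64 to -0.41). In the junction list 3 of 15 measured genes were higher and 1 lower, counting the rule gene Cldn5 among the higher ones. The catenin gene Ctnnd1 (79.1 and 155 CPM) was at the top and the adhesion gene Jam3 (50.9 and 31.4 CPM) and Cgnl1 (61.8 and 44.2 CPM) at the bottom.

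Heat shock genes were higher in the cKO library. Over all members 9 of 16 measured genes were higher and none lower (median 0.62), and in the restricted cells 11 of 16 were higher and none lower (median 0.67). The largest ratio was that of Hsph1 (HSP110, a nucleotide exchange factor of HSP70), at 41.5 and 168 CPM (2.01, 1.55 to 2.50) in the restricted cells. The inducible HSP70 gene Hspa1a (GRCm38 chr17:34969190-34972156, minus strand) stood at 175 and 555 CPM (1.67, 1.44 to 1.90) and its near copy Hspa1b at 61.8 and 212 CPM (1.77, 1.39 to 2.17). These genes share most of their sequence, so the split of reads between them is uncertain. The J-domain co-chaperone gene Dnaja1 stood at 739 and 1899.6 CPM (1.36, 1.25 to 1.48), the inducible HSP90 gene Hsp90aa1 at 609 and 1375 CPM (1.18, 1.04 to 1.31) and the HSP70 co-chaperone gene Bag3 at 72.0 and 171 CPM (1.25, 0.86 to 1.64). At the other end of the list stood Hspb8 (24.3 and 24.4 CPM, ratio 0.01, -0.86 to 0.85) and Chordc1 (48.5 and 43.0 CPM, ratio -0.17, -0.80 to 0.44).

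The HSP90 co-chaperones, the group to which Ptges3 belongs, had no shared direction. Of 21 measured genes 4 were higher and 5 lower in the restricted cells. Hsp90aa1 and the immunophilin gene Fkbp5 (21.1 and 36.1 CPM) had the highest ratios, and Ttc4 (39.1 and 14.0 CPM) the lowest.

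The promoters of 4 heat shock genes are shown because these genes were high together and heat shock factor is known to bind repeats of the unit GAA in alternating orientation. The windows run from 250 bases before to 50 bases after the start (RefSeq, GRCm38.p6) and are written 5' to 3' on the gene's strand, with matches to GAANNTTC or TTCNNGAA in capitals. Each of these strings reads the same on the opposite strand, and matches may overlap.
Hspa1a, chr17:34972107-34972406, minus strand, 1 match: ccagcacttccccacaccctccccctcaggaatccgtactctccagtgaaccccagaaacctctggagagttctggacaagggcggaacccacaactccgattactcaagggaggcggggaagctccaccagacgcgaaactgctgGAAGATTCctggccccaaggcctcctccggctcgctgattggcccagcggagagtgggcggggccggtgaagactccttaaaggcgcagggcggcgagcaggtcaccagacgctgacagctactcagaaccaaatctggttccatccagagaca
Hsph1, chr5:149636287-149636586, minus strand, 3 matches: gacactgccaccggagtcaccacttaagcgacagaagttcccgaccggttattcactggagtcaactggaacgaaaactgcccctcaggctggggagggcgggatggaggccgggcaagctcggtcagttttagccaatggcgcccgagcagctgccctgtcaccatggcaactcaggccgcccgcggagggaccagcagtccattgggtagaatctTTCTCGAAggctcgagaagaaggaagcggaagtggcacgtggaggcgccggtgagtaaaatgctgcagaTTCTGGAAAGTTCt
Dnaja1, chr4:40722218-40722517, plus strand, 1 match: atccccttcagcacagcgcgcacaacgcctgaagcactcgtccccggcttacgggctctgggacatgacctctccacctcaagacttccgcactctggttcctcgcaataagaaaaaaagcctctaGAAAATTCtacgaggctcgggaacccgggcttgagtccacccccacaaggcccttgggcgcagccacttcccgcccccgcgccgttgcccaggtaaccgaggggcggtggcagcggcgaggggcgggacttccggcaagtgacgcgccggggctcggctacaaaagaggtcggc
Bag3, chr7:128523333-128523632, plus strand, 1 match: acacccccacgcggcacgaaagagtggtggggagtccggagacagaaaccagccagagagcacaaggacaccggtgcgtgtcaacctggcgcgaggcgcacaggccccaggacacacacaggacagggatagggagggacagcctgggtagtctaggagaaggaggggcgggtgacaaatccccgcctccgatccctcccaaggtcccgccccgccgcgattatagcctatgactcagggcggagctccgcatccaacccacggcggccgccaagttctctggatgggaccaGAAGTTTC
Of the 17 listed genes 14 had a window among those given, and 11 of them had a match in at least 1 window. A match was held by 15.1% of all 32851 windows, and 17.0% of the 27025 genes in the table had at least 1 matching window. Dnaja1 has 2 further windows without a match, and Hsph1 has 1 further window that overlaps the one shown. Matches were not limited to genes with high ratios. Chordc1 and Hspb8, at the low end of the list's ratios, had 5 matches and 1 match, and no window of Dnajb1 had any. A match describes the letters and says nothing of binding.

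Heat shock genes were also higher in other cells of the cKO library. In all other filtered cells, 4 of 17 genes were higher and none lower (6.51% of all genes higher, list median 0.20). In the mural gate (77 flox and 120 cKO cells) 13 of 14 were higher (16.9% of all genes, median 1.30), and in the glial gate (3947 and 1887 cells) 10 of 17 (15.7%, median 0.63). In the fibroblast gate 9 of 17 were higher (9.45%, median 0.52), in the macrophage gate 7 of 16 with 2 lower (11.8%, median 0.34), and in the neuronal gate 2 of 17 with 1 lower (7.74%, median 0.04). The ratio of Hspa1a ranged over 5 gates from 0.30 in the macrophage gate to 2.94 in the neuronal gate. Differences between gates have no test with 1 library per genotype. Within cluster 2, with 41 flox and 21 cKO members, where 6 of the 10 leading genes were mural markers and 11 flox and 7 cKO cells were mixed, 8 of 13 heat shock genes were higher and none lower (17.5% of all genes higher, list median 0.61), and the part of mural RNA in this was not tested. After thinning, Hspa1a had a UMI in 13.6% and 28.6% of flox and cKO members (56.5% and 60.1% before) and in 1.78% and 15.1% of cells of the neuronal gate.

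**Figure D4:**
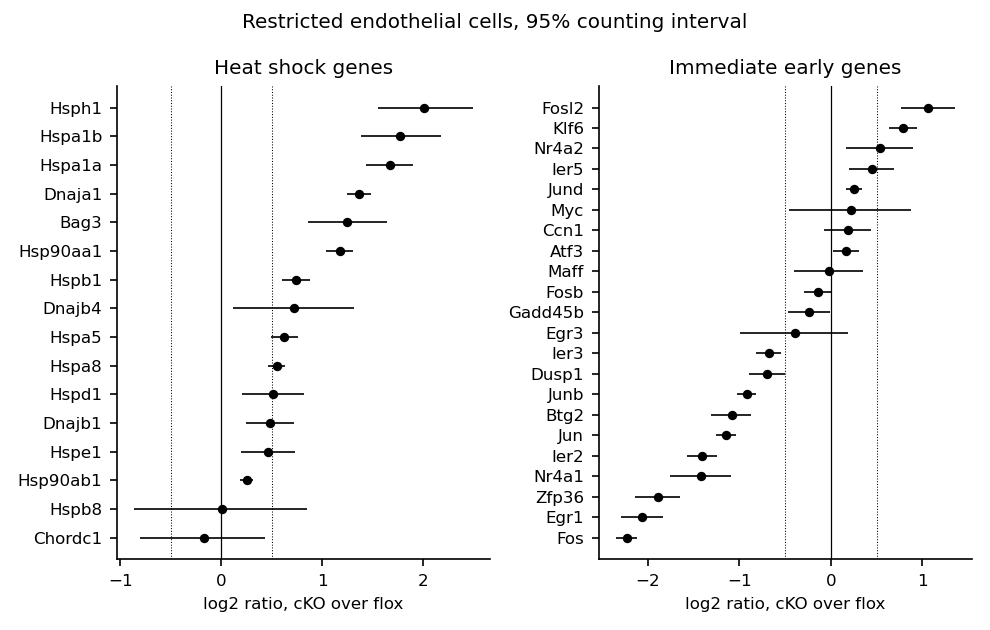
Log2 ratio, cKO over flox, of each measured heat shock and immediate early gene in the restricted cells, with the exact 95% counting interval. Hsph1 is at 2.01 at one end and Fos at -2.23 at the other.

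Immediate early genes, known to respond within minutes to growth factors and to tissue dissociation, were more often lower than higher. In the restricted cells 10 of 22 were lower and 3 higher (median -0.31), and over all members 12 of 23 were lower and 3 higher (median -0.61). Fos (GRCm38 chr12:85473890-85477273, plus strand), a subunit of the transcription factor AP-1, stood at 3669.8 and 783 CPM (-2.23, -2.35 to -2.11) in the restricted cells. The zinc finger factor gene Egr1 stood at 873 and 209 CPM (-2.06, -2.29 to -1.83), the AP-1 subunit gene Jun at 2304 and 1045 CPM (-1.14, -1.25 to -1.03) and the mRNA decay factor gene Zfp36 at 728 and 197 CPM (-1.89, -2.13 to -1.65). The list had no single direction, since Fosl2 stood at 129.9 and 271 CPM (1.06, 0.77 to 1.36) and Klf6 at 483 and 834 CPM (0.79, 0.63 to 0.95). After thinning, Fos had a UMI in 76.3% and 42.9% of flox and cKO members (88.7% and 73.2% before) and in 19.3% and 24.6% of cells of the neuronal gate. The ratio of Fos was -1.21 in the glial gate, -2.28 in the macrophage gate and 0.10 in the neuronal gate.

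Genes that respond to blood flow differed in both directions. Klf2 (GRCm38 chr8:72319033-72321656, plus strand), a transcription factor gene induced by laminar flow, stood at 1824 and 563 CPM (-1.70, -1.84 to -1.55) in the restricted cells, and its relative Klf4 at 671 and 305 CPM (-1.14, -1.34 to -0.94). By contrast Edn1 stood at 30.5 and 117 CPM (1.94, 1.40 to 2.52) and the sphingosine 1-phosphate receptor gene S1pr1 at 160.5 and 344 CPM (1.10, 0.84 to 1.37). For Edn1, 5 cells held 53.8% of the flox and 47.5% of the cKO UMIs. Of 13 measured genes of that list 4 were higher and 3 lower. The ratio of Klf2 was -2.34 in the macrophage, -2.04 in the mural, -0.996 in the glial and -0.81 in the fibroblast gate, against 0.94 in the neuronal gate.

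In the BMP and TGF-beta list, 3 of 15 measured genes lay below the fold and 2 above it. The lower ones were the BMP target genes Id1 (373 and 115 CPM, ratio -1.69, -2.02 to -1.38), Id2 (93.2 and 40.7 CPM) and Id3 (874 and 286 CPM, ratio -1.61, -1.81 to -1.41). The receptor genes Tgfbr1 (29.0 and 62.8 CPM) and Bmpr2 (154 and 219.9 CPM) were higher. The ratio of Id3 was -0.83 in the glial gate and -0.48 in the fibroblast gate, whereas that of Id1 was -1.36 in the glial, 0.27 in the fibroblast and 0.85 in the mural gate.

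Among transcription factors that specify endothelium, 4 of 22 were higher and 5 lower. Sox18, a factor of vessel and lymphatic development, stood at 305 and 83.8 CPM (-1.86, -2.25 to -1.50), while its relative Sox7 stood at 161 and 277 CPM (0.78, 0.51 to 1.06) and Sox17 at 195 and 192 CPM. Meox1 was lower (148 and 55.8 CPM), and Bcl6b (57.1 and 116 CPM) and Hhex (43.8 and 80.3 CPM) were higher. Erg (88.5 and 82.6 CPM) and Fli1 (126 and 119.8 CPM), ETS factors of the endothelial programme, were inside the fold.

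In the Notch list 2 of 8 measured genes were higher and 2 lower (median 0.04), and the other 4 were inside the fold. Dll4, a ligand of arterial and tip cells, stood at 121 and 189.6 CPM (0.65, 0.33 to 0.98) and the ligand gene Jag1 at 32.1 and 14.0 CPM (-1.20, -2.27 to -0.24). The effector gene Hes1 stood at 191 and 113 CPM (-0.76, -1.11 to -0.41) and the DNA-binding partner gene Rbpj at 32.1 and 71.0 CPM (1.15, 0.55 to 1.75). In the arterial list 5 of 13 measured genes were higher and 4 lower. Stc1 stood at 72.0 and 183 CPM, whereas the elastic fibre gene Fbln5 stood at 99.4 and 16.3 CPM (-2.61, -3.52 to -1.81) and Mgp, an inhibitor of calcification, at 524 and 166 CPM. The Fbln5 RNA sat in few cells, since 5 cells held 74.0% of the flox and 42.9% of the cKO UMIs.

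Angiogenic sprouting and guidance genes were near the background shares. In the tip cell list 4 of 17 measured genes were higher and 1 lower, led by the urokinase receptor gene Plaur (28.2 and 105 CPM) and the adrenomedullin co-receptor gene Ramp3 (74.4 and 144 CPM), with Lxn (149 and 90.7 CPM) and the nidogen gene Nid2 (207 and 151 CPM) at the bottom. In the guidance list 2 of 16 measured genes were higher and 3 lower, with the plexin gene Plxna2 (48.5 and 98.9 CPM) at the top and the ephrin genes Efnb1 (33.7 and 20.9 CPM) and Efna1 (116 and 73.3 CPM) at the bottom. In the list of permeable vessels 3 of 16 measured genes were higher and 2 lower, and Plvap stood at 1317 and 1090.0 CPM (-0.27, -0.39 to -0.16). At equal depth Plvap had a UMI in 73.2% and 60.8% of restricted flox and cKO cells.

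Venous and leukocyte-recruitment genes were mostly lower in the cKO library. In the restricted cells 8 of 13 venous genes were lower and 4 higher, and 9 of 15 adhesion and inflammation genes were lower and 2 higher, each list with a median of -0.82. The chemokine genes Cxcl10 (553 and 128 CPM, ratio -2.11, -2.41 to -1.82), Cxcl2 (134 and 43.0 CPM) and Cxcl1 (279 and 102 CPM) were lower, as was the cytokine signalling inhibitor gene Socs3 (526 and 162 CPM, ratio -1.70, -1.98 to -1.44). Of the Cxcl10 UMIs, 5 cells held 40.7% in the flox and 49.1% in the cKO library. For Cxcl2 these shares were 58.5% and 48.6%, and for Cxcl1 29.4% and 28.4%. The adhesion genes Selp (40.7 and 11.6 CPM) and Vcam1 (47.8 and 18.6 CPM) were lower and Icam1 higher (254 and 416 CPM, ratio 0.71, 0.49 to 0.93), as was Lrg1 (58.7 and 126 CPM). Few cells carried Selp and Vcam1, since 5 cells held 73.1% of the flox and 90.0% of the cKO UMIs of Selp and 57.4% of the flox and 62.5% of the cKO UMIs of Vcam1. Venous-like cells numbered 18 in the flox and 4 in the cKO library, and their part in these values was not tested. Of 19 interferon genes 8 were lower and 1 higher (median -0.36). Xaf1 (83.8 and 33.7 CPM) and Ifit1 (49.3 and 20.9 CPM) had the lowest ratios of that list and Stat2 (40.7 and 61.7 CPM) the highest. The interferon list was low in the fibroblast and macrophage gates as well, with medians of -0.82 and -1.05, but not in the neuronal gate, where the median was -0.0026. The median of the adhesion and inflammation list was -0.66 in the mural, -0.60 in the fibroblast and -0.93 in the macrophage gate. It was -0.47 in the glial and 0.18 in the neuronal gate. Over the 5 gates the ratio of Cxcl10 ranged from -1.60 (fibroblast) to 1.16 (neuronal). That of Socs3 ranged from -2.31 (mural) to 0.58 (neuronal).

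Cell division genes were lower in the cKO library, all 9 measured genes in the restricted cells and all 10 over all members, at medians of -1.37 and -1.29. The kinetochore gene Cenpf stood at 164 and 34.9 CPM (-2.23, -2.83 to -1.67) and the proliferation marker Mki67 at 142 and 54.7 CPM (-1.37, -1.87 to -0.90). These counts came from few cells, since 5 cells held 42.5% of the flox and 55.3% of the cKO UMIs of Mki67. After thinning to 1000 UMIs, at least 3 of 10 cell cycle markers were found in 14 of 177 flox (7.91%, 4.39 to 12.9%) and 8 of 168 cKO members (4.76%, 2.08 to 9.17%). That difference in the share of cells was within counting error, with a log2 ratio of -0.73 (-2.19 to 0.62). Thinned to 2000 UMIs the shares were 18.2% and 6.99%, with a ratio of -1.38 (-2.58 to -0.31), and before thinning they were 34.5% and 11.3%. Of 16 measured genes of the G1/S list 7 were lower and 2 higher, from the ribonucleotide reductase gene Rrm2 (32.9 and 11.6 CPM) to the histone mRNA binding gene Slbp (84.5 and 138 CPM).

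In the lipid uptake list 3 of 7 measured genes were higher and 1 lower. Fabp4 (GRCm38 chr3:10204088-10208576), a fatty acid binding protein gene of capillaries, stood at 179 and 752 CPM (2.07, 1.90 to 2.25) over all members and at 322 and 563 CPM (0.81, 0.61 to 1.00) in the restricted cells. Its RNA sat in few cells, since 5 cells held 65.9% of the flox and 87.4% of the cKO UMIs in the restricted sets. The water channel gene Aqp1 stood at 70.5 and 139.6 CPM (0.99, 0.58 to 1.40), and Fabp5 was lower (215 and 123 CPM).

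Most matrix genes were inside the fold. Of 18 basement membrane genes none was higher and 2 were lower in the restricted cells, the fibronectin gene Fn1 (139 and 73.3 CPM) and Mgp. The type IV collagen genes Col4a1 (2968 and 3471 CPM, ratio 0.23, 0.16 to 0.29) and Col4a2 (1629 and 2108 CPM, ratio 0.37, 0.28 to 0.46), main components of the vessel basement membrane, were inside the fold there. In the caveola list 0 of 10 measured genes were higher and 1 lower, the lower one being Cavin2 (305 and 157 CPM).

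Most genes of energy metabolism were inside the fold. Of 28 oxidative phosphorylation genes none was higher and 5 were lower (median -0.17), with Uqcrc2 (144 and 77.9 CPM) at the bottom. In the hypoxia and glycolysis list 2 of 17 measured genes were higher and 4 lower, and the glycolytic enzyme gene Gapdh stood at 933 and 511 CPM (-0.87, -1.03 to -0.71). Among ligands that act on neighbouring cells 4 of 13 measured genes were higher and 1 lower. The higher ones were Edn1, the chemokine gene Cxcl12 (142 and 259 CPM), the mural cell ligand gene Pdgfb (129 and 216 CPM) and the stem cell factor gene Kitl (254 and 419 CPM), and the growth factor gene Igf1 was lower (96.3 and 32.6 CPM).

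Over all genes, the highest ratios in the restricted cells by the interval bound belonged to Lars2 (36.0 and 364 CPM), the Ral activator gene Ralgds (36.0 and 173 CPM), Rsrp1 (274 and 969 CPM), the TWEAK receptor gene Tnfrsf12a (38.4 and 161 CPM), the zinc exporter gene Slc30a1 (50.1 and 200.1 CPM), Hsph1, Noct (50.9 and 199 CPM), the nuclear lamina gene Lmna (450.1 and 1365 CPM, ratio 1.60, 1.46 to 1.75), the glucocorticoid-responsive factor gene Klf9 (83.0 and 285 CPM) and Hspa1a. In the glucocorticoid list 5 of 13 measured genes were higher and 2 lower, with the cell cycle inhibitor gene Cdkn1a (359 and 959.7 CPM, ratio 1.42, 1.25 to 1.58) next after Klf9. The lowest ratios belonged to Fos, Egr1, Cxcl10, Fbln5, Cenpf, Zfp36, Klf2, Sox18, Klf10 (125 and 29.1 CPM, ratio -2.11, -2.78 to -1.49) and Socs3.

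**Figure D5:**
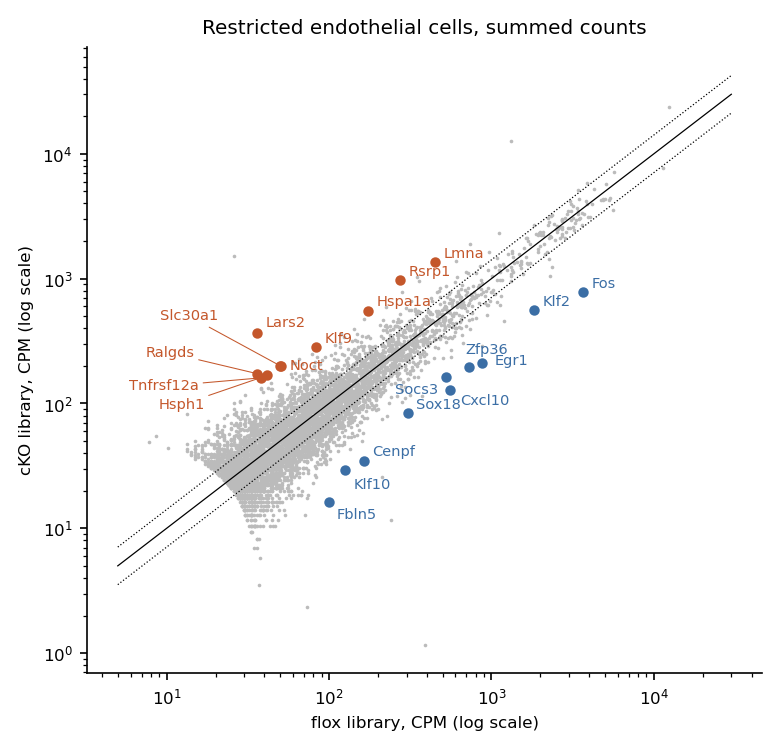
CPM of each measured gene in the restricted endothelial cells, flox library (x, log scale) against cKO library (y, log scale), with dotted lines at the fold of 0.5 log2 units. Fos lies at 3669.8 and 783 CPM and Lars2 at 36.0 and 364 CPM; coloured points are the 10 genes with the highest and the 10 with the lowest ratios by the interval bound.

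Signs of RNA quality moved with the libraries. In the members Gm42418 stood at 1231 and 11861 CPM and AY036118 at 22.1 and 1340.3 CPM, and the nuclear RNA Malat1 at 12622 and 23298 CPM. In all other filtered cells Gm42418 stood at 1027 and 8752 CPM, so that difference was shared by the rest of each library. The mitochondrial share of the members was 1.25% and 1.32%. Summed mural markers in the restricted cells were 1167 and 292 CPM and glial markers 568 and 453 CPM. The part of these values in the gene differences above was not tested.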

How the data were processed

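Single-cell 3' RNA libraries of DRG from 1 flox and 1 cKO preparation were used. The authors deposited whole-number UMI counts per gene and barcode. Cell Ranger 5.0.1, Scanpy and the build mm10 are named per the submitters' processing notes, and the deposited matrices name cellranger 6.1.2 per the file headers. Counting of intronic reads and removal of ambient RNA or doublets are not given in the sources used here. The libraries held 10014 (flox) and 9703 (cKO) barcodes with 132620886 and 78144437 UMIs, before the filters on cells.

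Members' counts were summed per library and divided by the sum (CPM). Poisson, conditional binomial and Clopper-Pearson intervals (95%, scipy 1.17.1) cover counting error only. With 1 library per genotype no test was made, and a gene is called higher or lower at 0.5 log2 units with at least 50 UMIs over both libraries. The intervals were run on data simulated with counting error alone, the error they assume, and without variation between cells or libraries. Over 7251 genes simulated for all members they covered 96.0% of the true ratios, and 7.46% of unchanged genes passed the fold. That run checks the calculation and cannot show how well the intervals suit the real counts. Members were clustered with leidenalg 0.10.2 (1000 variable genes, 15 components, 15 neighbours, resolution 0.5), without immediate early, heat shock, cell cycle and Y-linked genes. Mitochondrial, ribosomal protein, globin and G1/S genes, Ptges3, Xist and Tsix were also left out, whereas rRNA-overlapping genes were not. Both libraries were clustered together with no integration. No doublets were removed from the cells used. Scrublet, run in scanpy 1.11.5, called 0 and 2 cells by itself, which is too few for a working call, so leaving out its highest scores was an alternative only.

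Genes were named by rule: Ptges3, the 5 marker genes, the 2 highest and 2 lowest of each list with at least 5 measured members, members of the VEGF, angiopoietin and prostaglandin lists, the leading genes of clusters, and the 10 highest and 10 lowest genes overall with at least 100 UMIs, with no mitochondrial genes, ribosomal protein genes, globins, predicted genes, Xist or Tsix, and none over 5-fold higher in another cell gate. A few genes that the rule names are not reported here. Other genes named were chosen after their values were seen. The members and the gene lists were chosen with earlier results of these data known. Alternatives covered scaling (edgeR 4.0.16 trimmed means, DESeq2 1.42.0 size factors), depth, filters, the gate, doublet scores and clustering.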

Additional observations from a re-analysis of the deposited data

How the results depend on the processing

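No paired analysis was possible because each genotype had 1 library, and for the same reason no replicate could be left out. The restricted cells, leaving out the barrier-like cluster and a total without rRNA-overlapping genes were chosen after seeing the data. Against 1276 higher and 1896 lower genes, thinning to 1000 UMIs left 228 higher and 197 lower, a minimum of 200 UMIs left 460 and 533, and a minimum of 20 UMIs gave 2923 lower, settings that change how many genes are tested. DESeq2 size factors gave 1590 higher and 1512 lower. The barrier list's median turned to 0.19 in the restricted cells and 0.040 without the barrier-like cluster, as did the ratios of Apcdd1 (0.12 in the restricted cells) and Slc16a1 (1.11 and 0.22). Both settings leave out the cluster named from that list, so these turns describe that choice. The lipid uptake median turned to -0.051 with a minimum of 20 UMIs, and the ratio of the gene Tek to 0.00817 after thinning. Other list medians moved too, that of permeable vessels from 0.33 to -0.098 in the restricted cells, and after thinning that of BMP and TGF-beta from -0.012 to 0.51 and that of capillaries from -0.055 to 0.84. The guidance median moved from 0.14 to -0.099 as a mean of cells. The ratio of the gene Ptges3 was 0.26 after thinning. In these last settings the cause was not tested. The heat shock median stayed between 0.57 and 1.07, and the immediate early median between -0.64 and -0.13. The share ratio was 0.39 (0.07 to 0.70) among cells below the neuronal limit and 0.35 (-0.05 to 0.76) when cells were thinned before the rule was applied. The barrier-like share was 13.0% by a gate after thinning. Among single genes named, 481 values stayed close to the reported one, 96 moved further and 4 changed sign from a ratio past the fold. Sign changes from ratios inside the fold, such as that of Cldn5 in the restricted cells, are not among the 4. Standardising to equal shares of the clusters was not run, since the barrier-like cluster had no cKO cell. Depth limits the cKO members most, and 12 flox and 25 cKO members had under 2000 UMIs.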
